A study of Mus musculus with 14 samples.

Results

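The p53 target genes examined here are Cdkn1a, Bax, Mdm2, Ccng1, Phlda3, Trp53inp1, Bbc3, Pmaip1, Gadd45a and Eda2r, 10 of the 46904 genes in the deposited table. They were taken from the table by symbol, and all 10 were above 0 in at least 2 libraries, as were 46102 genes in all. RNA was taken from the brain hemispheres of male mice, 12 weeks old, on a C57BL/6J background, 48 h after the left middle cerebral artery had been blocked with a filament for 20 min (transient MCAO). Every animal had the surgery, so the control for each genotype is the contralateral hemisphere (CL) of operated mice and not a brain without stroke. The 4 groups are Cort+/+ CL (3 libraries), Cort+/+ ischemic hemisphere (MCAO, 3), Cort-/- CL (3) and Cort-/- MCAO (5), where Cort-/- mice carry a germline knockout of the neuropeptide cortistatin in every tissue. Replicates of a group are independent biological samples according to the extraction protocol, and the Cort+/+ MCAO libraries carry the numbers 2, 3 and 4. By its methods, the study kept libraries that grouped clearly where variability was large, a choice that can narrow the spread within groups. Cort was 2.61 to 5.68 RPKM in the 6 Cort+/+ libraries and at most 0.136 RPKM in the 8 Cort-/- libraries, as the genotype labels say. RPKM, the unit of the table, scales reads to gene length and library size.

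p53, the product of Trp53, is a transcription factor that is kept scarce in healthy cells by the ubiquitin ligase MDM2 and accumulates after DNA damage and other stress. It binds paired half-sites near its targets, whose products stop the cell cycle (Cdkn1a), feed back on p53 itself (Mdm2, Ccng1), or open the mitochondrial outer membrane to start apoptosis (Bax, with the BH3-only proteins encoded by Bbc3 and Pmaip1). In the ischemic brain, neurons, glia and incoming leukocytes can all express these genes. A lower level in a hemisphere can therefore mean fewer cells of a type or less RNA per cell, and bulk RNA cannot tell these apart.

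The region around each gene start was searched for the sequence that p53 is known to bind, since this is the feature that defines the genes. A match was 2 copies of the p53 half-site consensus, 10 bases each, separated by at most 10 bases, with at most 1 mismatch in all, within 2500 bases on either side of the start of the gene in GENCODE M39 on GRCm39. The C and the G that the consensus fixes in each half-site had to be present, so the mismatch could fall only at the other positions. The consensus reads the same on both strands. At least 1 match was present for 6 of the 10 genes, against 12.1% of 21757 protein-coding genes. The following matches are printed 5′ to 3′ on the strand of the gene, with half-sites in capitals and the bases between them in lower case.
Cdkn1a, chr17:29309902-29309921, plus strand, upstream of the gene: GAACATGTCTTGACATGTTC
Bax, chr7:45115265-45115291, minus strand, intron: GAGCTTGTTTacgtggtGGGCCAGCCC
Bax, chr7:45114961-45114986, minus strand, intron: AAACATGCTTttgctcAGTCAAGCCC
Ccng1, chr11:40646289-40646308, minus strand, upstream of the gene: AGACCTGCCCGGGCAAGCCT
Ccng1, chr11:40645763-40645782, minus strand, intron: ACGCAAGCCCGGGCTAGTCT
Trp53inp1, chr4:11155112-11155132, plus strand, upstream of the gene: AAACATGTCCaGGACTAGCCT
Gadd45a, chr6:67014844-67014867, minus strand, upstream of the gene: AAGCAAGCTTtgccCGGCATGTCT

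The match at Cdkn1a is centred at position -24 from the gene start, the upstream match at Ccng1 at -150 and that at Gadd45a at -414. The match at Trp53inp1, centred at -1290, is the one among the 10 genes without a mismatch, which 1.15% of protein-coding genes have. Pmaip1 also had a match, and none with these letters was found in the windows of Mdm2, Phlda3, Bbc3 and Eda2r. A match is a run of letters and not a measurement of binding, and Phlda3, the one target called below, is among the genes without one.

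The targets spanned a wide range of levels, and the order of the levels was mostly kept from library to library. Over the 14 libraries Bax was highest (mean 28.9 RPKM), followed by Ccng1 (21.2), Phlda3 (18.5), Mdm2 (14), Cdkn1a (9.34), Gadd45a (4.4), Bbc3 (3.18), Trp53inp1 (2.60), Pmaip1 (1.00) and Eda2r (0.155). Bax exceeded Ccng1, Phlda3 exceeded Mdm2, Cdkn1a exceeded Gadd45a, Trp53inp1 exceeded Pmaip1 and Pmaip1 exceeded Eda2r in 14 of 14 libraries. The closest neighbours were Mdm2 and Cdkn1a, where Mdm2 was higher in 10 of 14 libraries, and Ccng1 and Phlda3, where Ccng1 was higher in 12 of 14. Ranges over the libraries overlapped for every pair of neighbours except Trp53inp1 with Pmaip1 and Pmaip1 with Eda2r.

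**Figure D1:**
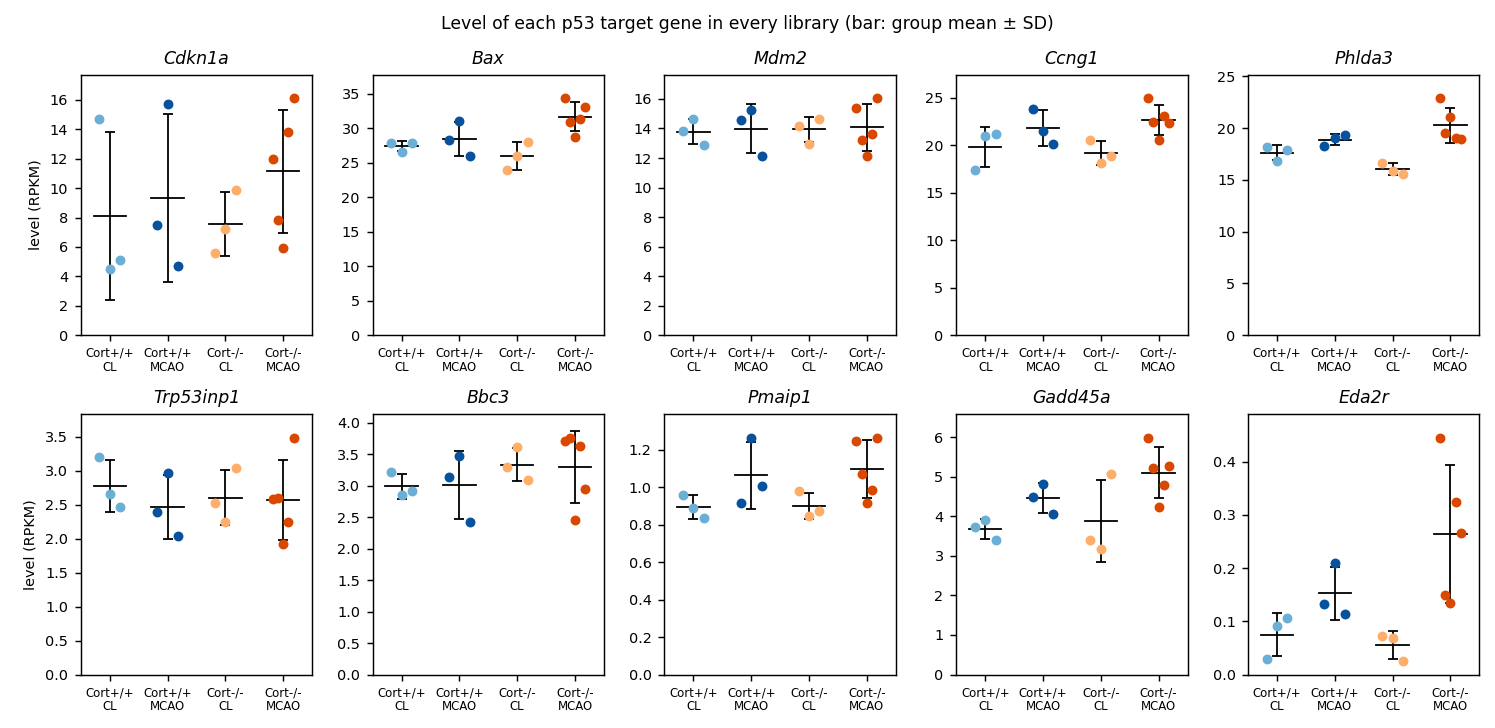
Level in RPKM (linear axis from 0, own scale in each panel) of the 10 p53 target genes in each of the 14 libraries by genotype and hemisphere; points are libraries, the long bar is the group mean and the whisker its SD. Phlda3 and Eda2r are the genes whose 8 MCAO libraries all lie above all 6 CL libraries, while Cdkn1a spreads between 4.52 and 16.1 RPKM with no separation of the hemispheres.

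The first question was which targets differed between the ischemic and the healthy hemisphere. In Cort-/- mice 1 of the 10 targets, Phlda3, passed an adjusted p of 0.05 (limma over all genes), and it rose, where 1.72% of the 46102 genes tested were called. In Cort+/+ mice 0 of 10 passed, where 0.0108% of genes (5) were called. Over the mean of both genotypes Phlda3 again was the 1 gene of 10 called, where 3.43% of genes were called. At an unadjusted p under 0.05, limma gave 5 of 10 targets in Cort-/- mice (Bax, Ccng1, Phlda3, Gadd45a and Eda2r), 0 of 10 in Cort+/+ mice and 6 of 10 over both genotypes (the same 5 and Pmaip1), all higher in MCAO. The shares over all genes tested at that level were 12.7%, 7.87% and 14.9%. Since well-expressed genes are called more often, a second background was taken from the 15063 genes that averaged 1 RPKM or more, where these shares were 24.6%, 12.1% and 28.8%. Among the same genes an adjusted p under 0.05 was reached by 4.08% in Cort-/- mice and 8.05% over both genotypes, so that 1 of 10 targets over both is near that share. The median log2FC of the 10 targets was 0.12 in Cort+/+ mice, 0.27 in Cort-/- mice and 0.20 over both, against 0 or less for the median of all genes tested and of those with at least 1 RPKM, to 2 decimals.

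Phlda3 encodes a pleckstrin homology domain protein that restrains AKT, a kinase of cell survival. Its level was 18.1, 16.8 and 17.9 RPKM in the CL and 18.3, 19.1 and 19.3 RPKM in the MCAO libraries of Cort+/+ mice. Its Cort-/- levels were 16.7, 15.9 and 15.6 RPKM in CL, and 22.9, 19.5, 21.1, 19.1 and 18.9 RPKM in MCAO. The lowest MCAO library of either genotype thus lay just above the highest CL library, 18.3 against 18.1 RPKM, and the hemispheres did not overlap. The log2FC was 0.33 ± 0.061 (SE, 26% higher) in Cort-/- mice with an adjusted p of 0.0204, and 0.10 ± 0.068 (SE) in Cort+/+ mice with an adjusted p of 0.853. Over both genotypes it was 0.22 ± 0.046 (SE) with an adjusted p of 0.020.

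The call of Phlda3 was lost without some single libraries. Within Cort-/- mice the adjusted p was 0.0629, 0.0655 and 0.0934 without CL replicate 1, 2 and 3 of that genotype, while the log2FC stayed between 0.31 and 0.36. Without these libraries the calls over all genes in Cort-/- mice also dropped, from 792 to 133, 322 and 149. Fitted on the Cort-/- libraries alone, the adjusted p of Phlda3 was 0.0576. Over both genotypes the adjusted p was 0.0518, 0.0556 and 0.0562 without Cort+/+ CL replicate 2, Cort+/+ MCAO replicate 3 and Cort-/- CL replicate 3. The larger log2FC of Cort-/- mice went with a lower level in CL and a higher one in MCAO. In CL the Cort-/- libraries lay below the Cort+/+ libraries without overlap (16.0 ± 0.571 against 17.6 ± 0.698 RPKM, SD, n = 3 each), as did 2.35% of genes tested, and in MCAO they had the higher mean (20.3 ± 1.69, SD, n = 5, against 18.9 ± 0.534 RPKM, SD, n = 3). Neither difference between genotypes passed, with log2FC of -0.13 ± 0.068 (SE) and 0.10 ± 0.061 (SE), both at an adjusted p of 1. The 10 endothelial markers were also lower in CL: they summed to 43.5 to 51.2 RPKM in Cort-/- and 53.5 to 62.1 RPKM in Cort+/+ libraries. In MCAO they summed to 56.3 to 76.9 and 60.1 to 65.9 RPKM, and 5 of 10 had the higher fitted mean in Cort-/- mice. In CL 10 of 10 had a lower fitted mean in Cort-/- mice, and 10 of 10 had the larger log2FC in that genotype (3 of 10 at an unadjusted p under 0.05 for each difference). None of the 10 passed the adjusted threshold. This was not particular to endothelial markers: 10 of 10 oligodendrocyte markers and 6 of 6 red cell genes had both the lower CL mean and the larger log2FC in Cort-/- mice. Over both genotypes 3 of 10 endothelial markers rose with MCAO, and none was at 0 in any library. The part of these cell markers in the level of Phlda3 was not tested.

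Eda2r, which encodes a member of the TNF receptor family for an ectodysplasin isoform, was the other target without overlap between hemispheres. It was the lowest of the 10, and each library held few of its reads: 4 to 19 in CL and 17 to 93 in MCAO. Its level was 0.0287, 0.0904 and 0.106 RPKM in CL and 0.133, 0.209 and 0.114 RPKM in MCAO of Cort+/+ mice. The Cort-/- libraries held 0.0726, 0.0690 and 0.0258 RPKM in CL, and 0.445, 0.149, 0.134, 0.324 and 0.266 RPKM in MCAO. All 8 MCAO libraries exceeded all 6 CL libraries, with the lowest MCAO library at 0.114 and the highest CL library at 0.106 RPKM. On the log2(RPKM + 0.1) scale, which understates changes of low genes, the difference was 1.16 ± 0.29 (SE) in Cort-/- mice (adjusted p = 0.0703) and 0.54 ± 0.33 (SE) in Cort+/+ mice (adjusted p = 0.802). Tested on the reads recovered from the table by limma voom, which adds a smaller constant to the read numbers, the log2FC in Cort-/- mice was 2.20 and passed (adjusted p = 0.0372), as did that over both genotypes (1.68, adjusted p = 0.0165).

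Every MCAO library lay above every CL library of its genotype for 3 of 10 targets in Cort+/+ mice (Phlda3, Gadd45a and Eda2r), where 5.73% of all genes tested did so, and for 3 of 10 in Cort-/- mice (Bax, Phlda3 and Eda2r), where 4.85% did. Over the 2 genotypes together it held for 2 of 10, Phlda3 and Eda2r, and for 1.72% of all genes tested. Among genes averaging 1 RPKM or more these shares were 8.19%, 8.85% and 3.76%.

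**Figure D2:**
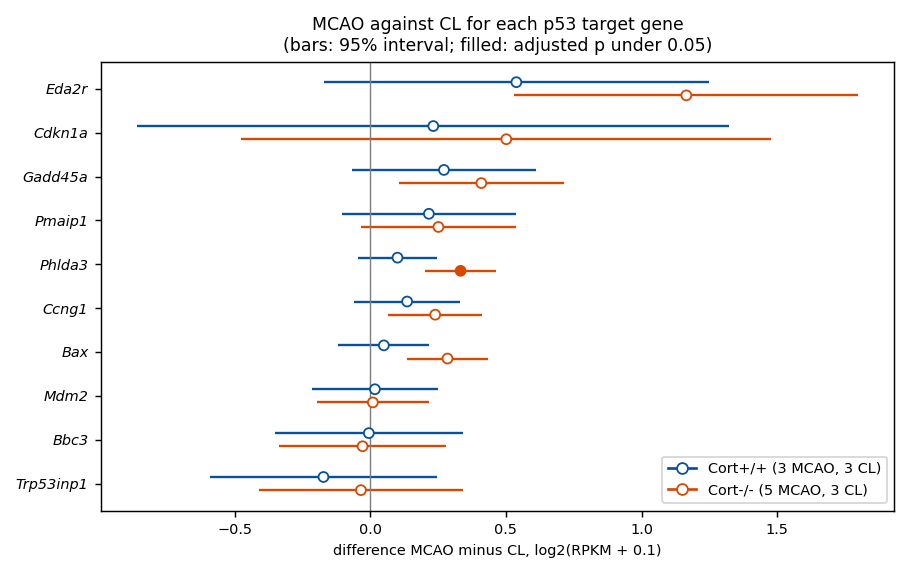
Difference between MCAO and CL on the log2(RPKM + 0.1) scale for each target, with its 95% interval from limma, in Cort+/+ (blue) and Cort-/- (orange) mice; filled points have an adjusted p under 0.05. Phlda3 in Cort-/- mice (0.33) is the one filled point, and the interval of Cdkn1a is the widest in Cort+/+ mice, from -0.86 to 1.32.

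Bax encodes the pore-forming effector of mitochondrial apoptosis. Its level was 27.8, 26.5 and 27.8 RPKM in CL and 28.2, 31.1 and 26.0 RPKM in MCAO of Cort+/+ mice, so that the hemispheres overlapped. For Cort-/- mice the values were 24.0, 26.0 and 28 RPKM in CL, and 34.3, 30.9, 28.8, 31.4 and 33.1 RPKM in MCAO, with no overlap. The log2FC was 0.28 ± 0.069 (SE, 22% higher) in Cort-/- mice and missed the threshold (adjusted p = 0.0610), and 0.05 ± 0.077 (SE) in Cort+/+ mice (adjusted p = 0.934). It passed in Cort-/- mice with a filter of 0.5 RPKM on the mean (adjusted p = 0.0266) and after quantile normalization (0.0444). It also passed without MCAO replicate 3 of that genotype (0.0275), or without MCAO replicate 3 (0.0455) or 4 (0.0475) of Cort+/+ mice. These were 3 of the 14 fits with 1 library left out. In the others Bax did not pass, and its limma adjusted p reached 0.262 without Cort-/- CL replicate 1. Under the alternatives that kept all libraries it reached 0.0977.

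The values of Bax are uncertain in one respect. Its first 918 bases are shared, on the same strand, with Gm45808, a protein-coding gene annotated from position 45115408 to 45136235 of chromosome 7, and how reads in shared exons were assigned is not given in the sources used here. Gm45808 was listed at a mean of 19.5 RPKM and followed Bax closely over the 14 libraries, with a root-mean-square difference of 0.036 between the centred log2 values. Ccng1 and Nudcd2, on opposite strands, share 3787 bases, and Nudcd2 was listed at a mean of 5.96 RPKM.

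Ccng1 and Gadd45a, which encode cyclin G1 and a small nuclear protein of DNA damage and stress signalling, had higher means in MCAO without passing the test. Ccng1 was 17.4, 21.0 and 21.2 RPKM in CL and 23.9, 21.5 and 20.1 RPKM in MCAO of Cort+/+ mice, and 20.6, 18.2 and 18.9 RPKM in CL of Cort-/- mice. Its Cort-/- MCAO libraries held 25, 22.5, 20.6, 23.1 and 22.4 RPKM, of which 4 of 5 exceeded each CL library of that genotype. The log2FC of Ccng1 was 0.14 ± 0.090 (SE) in Cort+/+ and 0.24 ± 0.080 (SE) in Cort-/- mice (adjusted p = 0.843 and 0.184).

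Gadd45a was 3.74, 3.90 and 3.40 RPKM in CL and 4.5, 4.83 and 4.07 RPKM in MCAO of Cort+/+ mice, without overlap. In Cort-/- mice it was 3.39, 3.17 and 5.08 RPKM in CL, and 5.99, 5.23, 4.24, 4.80 and 5.27 RPKM in MCAO. CL replicate 3 stood apart from the other CL libraries and overlapped with MCAO. The log2FC was 0.27 ± 0.16 (SE) in Cort+/+ and 0.41 ± 0.14 (SE) in Cort-/- mice (adjusted p = 0.767 and 0.196), and without Cort-/- CL replicate 3 the log2FC over both genotypes was 0.44 and passed (adjusted p = 0.0188), against 0.34 with it (adjusted p = 0.112). That was 1 of the 14 fits with 1 library left out. In the others Gadd45a did not pass, and its limma adjusted p over both genotypes reached 0.247 without Cort-/- CL replicate 1.

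The BH3-only genes, whose proteins bind BCL2 family members to promote apoptosis, showed small differences. Pmaip1, which encodes NOXA, was 0.958, 0.889 and 0.834 RPKM in CL and 0.916, 1.26 and 1.01 RPKM in MCAO of Cort+/+ mice. Its Cort-/- levels were 0.977, 0.847 and 0.870 RPKM in CL, and 1.24, 1.07, 0.914, 0.982 and 1.26 RPKM in MCAO. In 6 of 8 MCAO libraries it exceeded every CL library, and its log2FC over both genotypes was 0.23 ± 0.10 (SE, adjusted p = 0.284).

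Bbc3, which encodes PUMA, was 3.22, 2.85 and 2.91 RPKM in CL and 3.14, 3.47 and 2.42 RPKM in MCAO of Cort+/+ mice. The Cort-/- libraries held 3.29, 3.61 and 3.10 RPKM in CL, and 3.71, 3.77, 2.46, 3.63 and 2.95 RPKM in MCAO. In both genotypes the MCAO libraries lay on both sides of the CL libraries. The log2FC over both genotypes was -0.017, with a 95% interval from -0.25 to 0.21.

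Cdkn1a encodes p21, the inhibitor of cyclin-dependent kinases that is the best-known transcriptional target of p53. It varied more between libraries of one group than any other target on the log2(RPKM + 0.1) scale, which narrows the spread of Eda2r. The SD within groups was 0.70 on that scale, more than in 98.1% of genes averaging 1 RPKM or more, for which the median was 0.12. As highest over lowest RPKM, Eda2r spread wider than Cdkn1a in both CL groups and in Cort-/- MCAO (3.32 against 2.70). In Cort+/+ MCAO it spread less (1.83 against 3.32). In Cort+/+ mice it was 14.7, 4.52 and 5.13 RPKM in CL and 7.5, 15.7 and 4.73 RPKM in MCAO. For Cort-/- mice the values were 5.6, 7.21 and 9.86 RPKM in CL, and 12.0, 7.85, 5.96, 13.8 and 16.1 RPKM in MCAO. One healthy hemisphere, Cort+/+ CL replicate 1, held about as much as the highest MCAO libraries.

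Reads were not scarce for Cdkn1a, from 398 to 1742 per library, so counting error is small beside this spread. The log2FC was 0.23 ± 0.50 (SE) in Cort+/+ and 0.50 ± 0.45 (SE) in Cort-/- mice (adjusted p = 0.967 and 0.722). The 95% interval over both genotypes, from -0.37 to 1.1, includes both no change and a doubling. In Cort+/+ mice the sign turned when CL replicate 2 (-0.078) or MCAO replicate 3 (-0.23) was left out. Without CL replicate 1 the log2FC in Cort+/+ mice was 0.76, still without a call (limma adjusted p = 0.733).

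Mdm2 and Trp53inp1, which encode a brake on p53 and a stress protein that promotes its activity, had no call in any comparison. Mdm2 was 13.8, 14.6 and 12.9 RPKM in CL and 14.6, 15.3 and 12.1 RPKM in MCAO of Cort+/+ mice. The Cort-/- levels of Mdm2 were 14.2, 13.0 and 14.7 RPKM in CL, and 15.4, 13.2, 12.1, 13.6 and 16.0 RPKM in MCAO. The hemispheres overlapped in both genotypes, and the log2FC over both was 0.013, with a 95% interval from -0.14 to 0.17.

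Trp53inp1 was 3.21, 2.66 and 2.47 RPKM in CL and 2.39, 2.96 and 2.04 RPKM in MCAO of Cort+/+ mice. In Cort-/- mice it was 2.53, 2.25 and 3.04 RPKM in CL, and 2.59, 2.61, 1.93, 2.24 and 3.49 RPKM in MCAO. Its log2FC over both genotypes was -0.10 ± 0.13 (SE, adjusted p = 0.799), and its highest and lowest values were both in Cort-/- MCAO libraries.

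**Figure D3:**
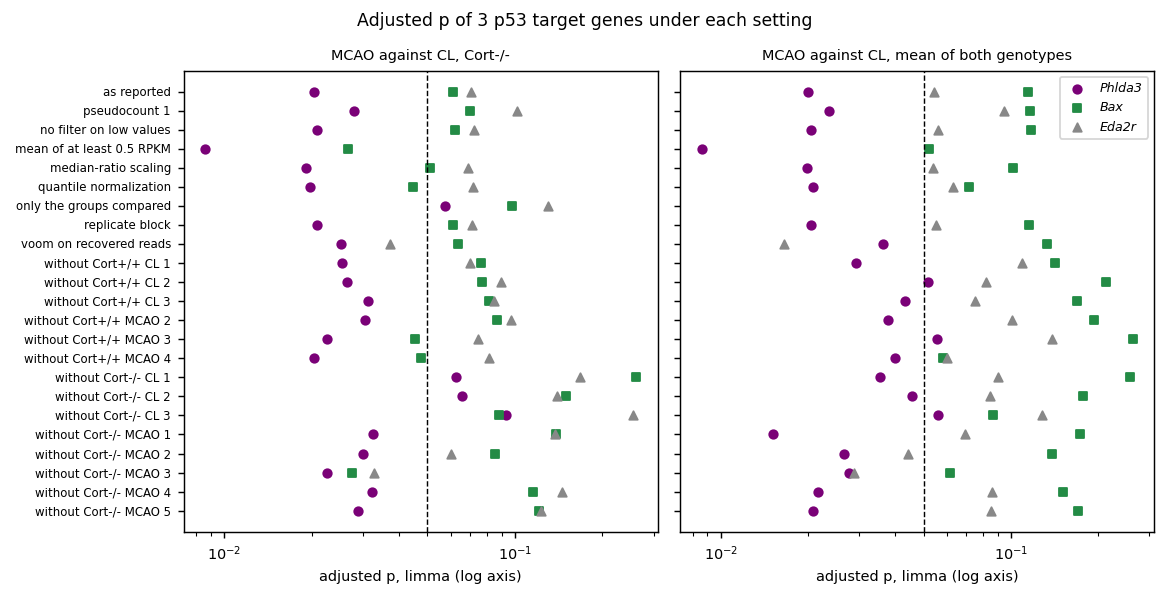
Adjusted p from limma (log axis, dashed line at 0.05) of Phlda3 (circles), Bax (squares) and Eda2r (triangles) in Cort-/- mice (left) and over both genotypes (right), as reported and under each alternative setting or with 1 library left out. Phlda3 crosses the line without any of the Cort-/- CL libraries on the left (0.0629 to 0.0934) and without 3 libraries on the right; Eda2r has no value under the filter of 0.5 RPKM.

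The second question was whether the loss of cortistatin changed these genes. Between genotypes 0 of 10 targets passed in CL, 0 of 10 in MCAO and 0 of 10 for the difference of the MCAO response, where limma called 0.0152%, 0.0174% and 0.00217% of genes. At an unadjusted p under 0.05 there were 0 of 10 in CL, 1 of 10 in MCAO (Bax) and 2 of 10 for the difference in response (Bax and Phlda3). Of all 46102 genes tested, 1802 had such a p in CL, 3.82% in MCAO and 3.31% for the difference. Among genes averaging 1 RPKM or more the shares were 2.94%, 2.29% and 1.41%. The log2FC in Cort-/- mice exceeded that in Cort+/+ mice by 0.23 ± 0.10 (SE) for Bax and by 0.23 ± 0.091 (SE) for Phlda3, both at an adjusted p of 1.00. Eda2r had the largest difference in response, 0.63, with a 95% interval from -0.32 to 1.58.

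In the MCAO hemisphere 10 of 10 targets had a higher fitted mean in Cort-/- than in Cort+/+ mice (median log2FC 0.11), while 49.4% of all genes tested did. The targets were measured in the same libraries, so the 10 signs are not independent. Without Cort+/+ MCAO replicate 4 the count was 6 of 10, with a median of 0.0062. In CL 5 of 10 were higher and 5 lower in Cort-/- mice. For Phlda3, Bax and Eda2r, the 95% intervals of the log2FC between genotypes in MCAO ran from -0.033 to 0.23, from 0.0072 to 0.31 and from -0.16 to 1.11.

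Cort+/+ MCAO replicate 4 was the lowest of the 8 MCAO libraries for 7 of the 10 targets, and Cort-/- MCAO replicate 1 the highest for 5. The same libraries had the lowest and the highest sums of 10 microglial markers among the MCAO libraries, 290.7 and 668.6 RPKM. Microglial markers summed to 197.7 to 261.6 RPKM in the CL libraries, and 9 of 10 rose over both genotypes. The 10 markers of infiltrating macrophages and monocytes summed to 14.5 to 26.4 RPKM in CL and 37.6 to 236.8 RPKM in MCAO, with 6 of 10 raised. One of them, Cd5l, was at 0 in part of the libraries. The 10 markers of striatal medium spiny neurons, the cells in the core of this artery's territory, all fell, from 430.8 to 483.9 RPKM in CL to 208.3 to 405.2 RPKM in MCAO. The part of these shifts in cell markers in the levels of the p53 targets was not tested.

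The wider pathway was examined through 7 lists with 103 distinct genes, of which 14 rose and 2 fell over both genotypes (15.5%), 9 rose and 2 fell in Cort-/- mice, and 0 were called in Cort+/+ mice or between genotypes. Calls over both genotypes and in Cort-/- mice made up 3.43% and 1.72% of all genes tested, and 8.05% and 4.08% of those averaging 1 RPKM or more. These shares are the background for the calls in each list below. Without Cort+/+ MCAO replicate 3 the number called over both genotypes was 10, and without Cort+/+ MCAO replicate 4 there were 4 in Cort+/+ mice. The number in Cort-/- mice was 2, 4 and 2 without CL replicates 1, 2 and 3 of that genotype, and 4, 5 and 6 without its MCAO replicates 1, 4 and 5. Trp53 itself was 11.9 ± 0.901 RPKM in CL and 11.7 ± 1.66 RPKM in MCAO of Cort+/+ mice (SD, n = 3 each), and 11.3 ± 0.658 (SD, n = 3) and 12.6 ± 1.29 RPKM (SD, n = 5) in Cort-/- mice. Its log2FC over both genotypes was 0.057 ± 0.072 (SE, adjusted p = 0.803). None of the 15 genes of the list of p53 and its regulators was called, with 4 of 15 at an unadjusted p under 0.05 over both genotypes, close to the 28.8% of genes averaging 1 RPKM or more (14.9% of all tested). The most abundant of them were Usp7, a deubiquitinase of MDM2 and p53 (mean 36.2 RPKM), and Kat5, an acetyltransferase (24.7 RPKM), with log2FC of -0.062 and -0.055.

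Among 32 other p53 targets 6 rose and none fell over both genotypes, where 3.43% of all genes tested and 8.05% of those averaging 1 RPKM or more were called, and the median log2FC was 0.05. Gdf15, a stress cytokine of the TGF-beta superfamily, had the largest difference, 2.32 ± 0.28 (SE, adjusted p = 0.00140), and its MCAO libraries exceeded the CL libraries in 8 of 8. It remained low, at a mean of 0.362 RPKM and 0 to 94 reads per library. Ckap2 (1.51 ± 0.21, SE, adjusted p = 0.00225) and Gtse1 (1.50 ± 0.19, SE, adjusted p = 0.00145), microtubule-associated proteins of dividing cells, rose together with all 10 mitosis markers, whose sum went from 1.92 to 3.33 RPKM in CL to 5.70 to 16.5 RPKM in MCAO. The part of cell division in their change was not tested. Rps27l, a ribosomal protein variant, rose by 0.65 ± 0.11 (SE, adjusted p = 0.00587), and Pidd1 and Tnfaip8, outside the rule for named genes and given to complete the count, by 0.49 and 0.45. Pidd1 lost its call with a pseudocount of 1 (adjusted p = 0.0565). The most abundant, Plk2 (59.4 RPKM) and Ei24 (35.6 RPKM), had log2FC of -0.10 and -0.031 and were not called.

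**Figure D4:**
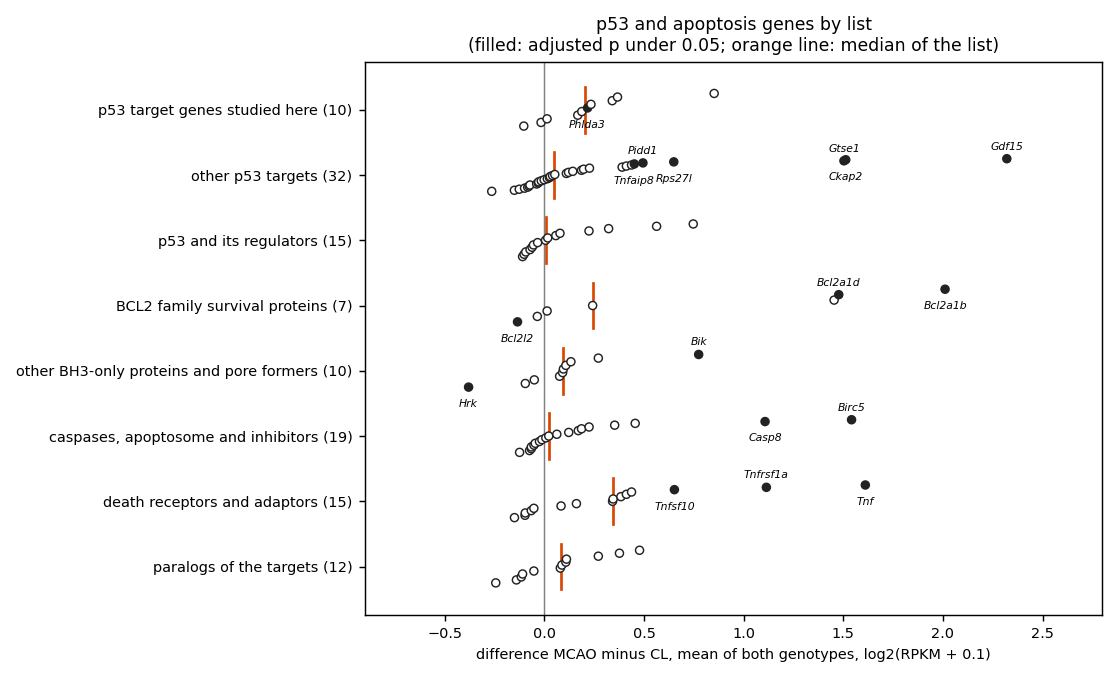
Difference between MCAO and CL over both genotypes on the log2(RPKM + 0.1) scale for the 10 targets and for 7 further lists of p53 and apoptosis genes (number of genes in brackets); each point is a gene, filled and named where the adjusted p is under 0.05, and the orange line is the median of the list. Gdf15 (2.32) and Bcl2a1b (2.01) lie farthest to the right, while most genes of each list are within 0.5 of 0.

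The BCL2 family moved in both directions. Of 7 survival proteins 2 rose and 1 fell: Bcl2a1b (2.01 ± 0.22, SE, adjusted p = 0.000880), Bcl2a1d (1.48 ± 0.35, SE, adjusted p = 0.0366) and Bcl2l2 (-0.14 ± 0.026, SE, adjusted p = 0.0138). Bcl2a1b and Bcl2a1d are near-identical copies of an immune-cell gene, so that reads may be split between them, and Bcl2a1d lost its call without any 1 of 8 libraries and with a pseudocount of 1 (adjusted p = 0.0879). Bcl2l2, which encodes BCL-W, was lower in 8 of 8 MCAO libraries than in every CL library. Bcl2l1, which encodes BCL-XL, was at a mean of 28.2 RPKM with a log2FC of 0.013.

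Of 10 other BH3-only proteins and pore formers 1 rose and 1 fell. Hrk, a BH3-only gene of neurons, fell by 0.38 on the log2 scale (SE 0.072, adjusted p = 0.0115), and 7 of 8 MCAO libraries lay below every CL library. Bik rose (0.77 ± 0.18, SE, adjusted p = 0.0310) from almost no reads, 0 to 14 per library, and lost its call with a pseudocount of 1 and without any 1 of 7 libraries. The most abundant, Bnip3 (40.2 RPKM) and Bnip3l (29.7 RPKM), mitophagy receptors, had log2FC of -0.096 and -0.051 and were not called.

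Of 19 caspases, apoptosome genes and inhibitors 2 rose: Casp8, the initiator caspase of death receptors (1.11 ± 0.18, SE, adjusted p = 0.00576), and Birc5, or survivin, which also acts in mitosis (1.54 ± 0.24, SE, adjusted p = 0.00441). Parp1 (22.3 RPKM), a substrate of caspases, and Cycs (17.9 RPKM), cytochrome c, had log2FC of 0.0069 and 0.12 and were not called. Of 15 death receptors, ligands and adaptors 3 rose, namely Tnf (1.61 ± 0.36, SE, adjusted p = 0.0283), Tnfrsf1a, its receptor (1.11 ± 0.22, SE, adjusted p = 0.0141), and Tnfsf10, the ligand TRAIL (0.65 ± 0.13, SE, adjusted p = 0.0176). Tnf held 0 to 56 reads per library and lost its call with a pseudocount of 1. The most abundant, Tnfrsf21, was at 24.9 RPKM with a log2FC of -0.096. None of 12 paralogs of the targets was called, with 5 of 12 at an unadjusted p under 0.05 over both genotypes (14.9% of all genes tested, 28.8% of those averaging 1 RPKM or more). The most abundant were Trp53inp2 (55.0 RPKM, log2FC 0.11) and Bok (27.5 RPKM, log2FC 0.11).

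Likeness to other genes over the 14 libraries was examined for Cdkn1a and for a mean profile of the targets. That mean included Cdkn1a. Likeness was measured as the root-mean-square difference of log2(RPKM + 0.1) values after each gene was centred on its own mean, over 15054 other genes averaging 1 RPKM or more. Nearest to Cdkn1a were Zfp36, a regulator of mRNA decay (0.31), Mt2, a metallothionein (0.31), Fas, a death receptor (0.31), Ucp2, a mitochondrial carrier (0.32), and Xdh, xanthine dehydrogenase (0.33), where the median over all genes was 0.66. None of the 8 other targets averaging 1 RPKM or more was as near to Cdkn1a, and Eda2r was not compared. The nearest of the 8, Trp53inp1, was at 0.53 and ranked 512 of 15062 genes. The measure is not scaled for how much a gene varies, and the Cdkn1a profile itself had a root mean square of 0.64. The SD within groups was 0.70 for Cdkn1a and at most 0.26 for these 8. Smaller variation alone sets them apart, so the measure does not show whether their pattern followed Cdkn1a. Mt2 was 187.9 RPKM in Cort+/+ CL replicate 1, the contralateral hemisphere with much Cdkn1a, and 81.6 and 100.3 RPKM in the other CL libraries of that genotype.

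Among the 5 genes nearest to the mean profile of the 9 targets with at least 1 RPKM were Ticam1, a Toll-like receptor adaptor (0.077), Cmpk2, a mitochondrial nucleotide kinase (0.079), Cdk4, a cyclin-dependent kinase (0.080), and Trafd1, a regulator of innate signalling (0.081). The median over all genes was 0.22. The mean profile was highest in Cort-/- MCAO replicates 1 and 5 (1.21-fold and 1.2-fold of its mean) and lowest in Cort+/+ MCAO replicate 4 (0.863-fold), while the CL libraries lay between 0.882-fold and 1.04-fold. These likenesses describe the same 14 libraries and carry no test.

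**Figure D5:**
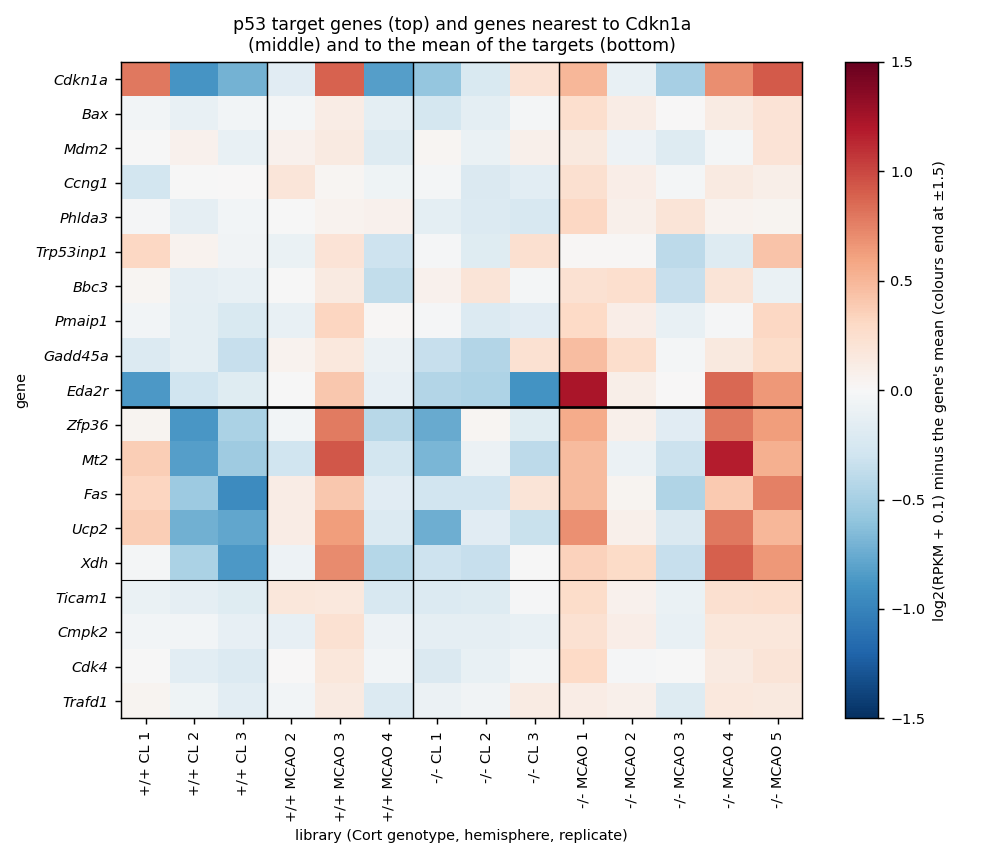
Centred log2(RPKM + 0.1) of the 10 targets (top), of the 5 genes nearest to Cdkn1a (middle) and of 4 of the 5 nearest to the mean of the targets (bottom) in each library; red is above and blue below the gene's own mean, with colours ending at ±1.5. Cdkn1a and its 5 nearest genes are high in Cort+/+ MCAO replicate 3 and Cort-/- MCAO replicates 1, 4 and 5. Cdkn1a, Mt2, Fas and Ucp2 are also high in Cort+/+ CL replicate 1, where Cdkn1a held 14.7 RPKM, while Zfp36 and Xdh are near their means there.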

How the data were processed

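The authors sequenced poly(A) RNA with a stranded kit, aligned it to GRCm39 with reanalyzerGSE and deposited RPKM values of each library without pooling. The paper's methods name GENCODE M28 and edgeR. Whether counting used the strand is not given in the sources used here, and the deposited comparisons of the study were not used. Whole reads were recovered from the steps of the deposited RPKM values for 99.997% of 495656 values above 0 (tolerance 0.02 reads), and libraries held 25989896 to 43032440 reads on genes.

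Genes above 0 in at least 2 libraries were fitted with limma (trend) on log2(RPKM + 0.1), 1 model of 4 groups, with Benjamini-Hochberg adjustment over 46102 genes and a threshold of 0.05. Named are all 10 targets, and for each other list up to 4 called genes of largest log2FC over both genotypes and the 2 of highest mean RPKM. The 5 genes nearest to each likeness profile are named, except 1 that is not reported here. The targets and lists were chosen with earlier results of these data known. p53 matches were read from GRCm39, and gene positions from GENCODE M39. The fit and read recovery were tested on simulated data. The 19 pairs of libraries within groups all differed beyond counting noise. Alternatives were another pseudocount (1 RPKM), no filter, a filter on the mean (0.5 RPKM), 2 scalings, the compared groups alone, a replicate block, limma voom on the recovered reads, and leaving out each of the 14 libraries. The fits ran in limma 3.58.1 (R 4.3.3), and tables and plots in Python 3.11.15 (pandas 2.3.3, numpy 2.4.6, matplotlib 3.10.9).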

Additional observations from a re-analysis of the deposited data

How the results depend on the processing

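Of 227 log2FC of targets between MCAO and CL under the 8 alternatives other than leaving out a library, 220 kept their direction and call. Bbc3 turned sign with voom (0.0091 in Cort+/+ mice and 0.0020 over both genotypes). The number of targets called in Cort-/- mice was 2 with the mean filter and after quantile normalization (Phlda3 and Bax), 2 with voom (Phlda3 and Eda2r), 0 on the compared groups alone, and 0 to 3 with 1 library left out. Over both genotypes it was 2 with voom and 0 to 2 with 1 library left out. In the other comparisons it was 0 under every alternative run.

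Of 420 log2FC with 1 library left out, 379 kept direction and call, 28 turned sign, 7 became calls and 6 lost them. None of those that turned was called, and their cause was not tested. With 1 library left out, Cdkn1a ran from -0.23 to 0.76 in Cort+/+ mice, Bax from -0.015 to 0.11 in Cort+/+ mice and Trp53inp1 from -0.15 to 0.078 in Cort-/- mice. Mdm2 ran from -0.049 to 0.12 in Cort+/+ mice, from -0.041 to 0.061 in Cort-/- mice and from -0.020 to 0.063 over both. Bbc3 ran from -0.11 to 0.14 in Cort+/+ mice, from -0.079 to 0.070 in Cort-/- mice and from -0.070 to 0.055 over both.

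The count of all genes called in Cort+/+ mice was 5, against 2 with a pseudocount of 1, 28 with the mean filter, 13 after quantile normalization, 1 on the compared groups alone, 57 with voom and 3 to 160 with 1 library left out (the last without Cort+/+ MCAO replicate 4). In Cort-/- mice it was 792, against 543 with a pseudocount of 1, 528 on the compared groups alone, 1290 with the mean filter and 1294 with voom. With 1 library left out it was 133 (Cort-/- CL replicate 1) to 1191 (Cort-/- MCAO replicate 3). Over both genotypes it was 1579, against 2180 with the mean filter and 2145 with voom. With 1 library left out it was 941 (Cort+/+ MCAO replicate 3) to 1913 (Cort-/- MCAO replicate 3). Between genotypes it was 7 in CL (4 with the mean filter, 2 on the compared groups alone, 15 with voom, and 7 to 27 with 1 library left out), 8 in MCAO (4 with the mean filter, 7 to 40 with 1 left out) and 1 for the difference in response (0 with the mean filter and with voom, 1 to 16 with 1 left out). Pidd1, Bcl2a1d, Bik and Tnf lost their calls over both genotypes without any 1 of 9, 8, 7 and 6 libraries, and Tnfaip8 and Tnfsf10 without Cort+/+ MCAO replicate 3. Whether same-numbered libraries share an animal is not given in the sources used here. Deviations of same-numbered libraries from their group means correlated between -0.24 and 0.32 over 5 pairs, too few to decide it. With the replicate block the targets called were 0 in Cort+/+ and 1 in Cort-/- mice, as without it. The low read numbers of Eda2r limit what can be said of its size.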
